A study of Mus musculus with 6 samples.

Results

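AP-1 is a family of dimeric transcription factors, and the genes described here are 10 members and companions of that family: Fos, Fosb, Fosl1, Jun, Junb, Egr1, Egr2, Atf3, Ier2 and Dusp1. They were chosen by symbol, with their read counts in these libraries already known, from a deposited table of 16763 genes. No row of that table carried the symbol Egr2, so its expression is not analysed here, and only its promoter is described. The other 9 all passed the filter on low counts, as did 12891 genes in all.

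The RNA came from tumors that 4T1 cells, a mammary carcinoma line of BALB/c origin, had formed in mice of that strain. The 3 model samples came from mice bearing such tumors, and the 3 DMDD liposome samples from mice that bore the same tumors and received DMDD, a compound the labels give only by that abbreviation, carried in lipid vesicles. Both groups therefore share the 4T1 tumor, and the labels call every animal male. The labels used here state no dose, duration, age or tumor site and no empty-liposome group, and nothing says whether the libraries of a group came from separate mice, so a p-value here reflects no more than the variation among these libraries, part of which may be technical. Library totals ran from 13037500 to 15616840 counts. Model replicate 2 stood apart in epidermal keratinocyte transcripts, and without model replicate 1 the number of genes called over the whole table went from 0 to 112.

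Immediate early genes are switched on within minutes of a growth factor, stress or wounding signal, before any new protein is made, and their transcripts decay fast. MAP kinases act on factors already bound at their promoters, among them serum response factor with its Elk partners and CREB at cyclic AMP response elements (CREs). The Fos and Jun proteins that follow pair through leucine zippers and bind AP-1 sites, Egr1 binds GC-rich sites through zinc fingers, and Dusp1 removes the phosphates from the MAP kinases. In tumors these genes are expressed by cancer cells and by stroma, vessels and leukocytes alike, and tissue handling is a known stimulus for them.

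The promoters of 4 members are shown: those of Fos, Fosb and Dusp1, which ranged widely over the libraries, and that of Jun, the Fos partner, which ranged less. Each sequence is the 250 bases before the RefSeq start site on build GRCm38.p6, 5′ to 3′ on the gene's own strand, at chr12:85473640-85473889 (plus strand) for Fos, chr7:19310046-19310295 (minus) for Fosb, chr17:26508473-26508722 (minus) for Dusp1 and chr4:95052223-95052472 (minus) for Jun. Capitals mark the CRE core TGACG on either strand, the TATA box TATAAA on the printed strand, and in Jun the variant TGACATCA.
Fos: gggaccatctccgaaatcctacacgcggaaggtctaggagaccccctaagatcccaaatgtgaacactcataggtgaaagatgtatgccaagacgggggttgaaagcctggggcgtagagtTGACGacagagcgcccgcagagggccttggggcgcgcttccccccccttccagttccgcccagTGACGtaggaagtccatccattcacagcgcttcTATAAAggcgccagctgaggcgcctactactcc
Fosb: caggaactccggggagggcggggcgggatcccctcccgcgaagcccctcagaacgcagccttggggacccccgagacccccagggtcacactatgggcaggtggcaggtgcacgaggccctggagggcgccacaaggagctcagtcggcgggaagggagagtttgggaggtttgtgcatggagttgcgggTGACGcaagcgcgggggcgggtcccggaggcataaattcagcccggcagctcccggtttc
Dusp1: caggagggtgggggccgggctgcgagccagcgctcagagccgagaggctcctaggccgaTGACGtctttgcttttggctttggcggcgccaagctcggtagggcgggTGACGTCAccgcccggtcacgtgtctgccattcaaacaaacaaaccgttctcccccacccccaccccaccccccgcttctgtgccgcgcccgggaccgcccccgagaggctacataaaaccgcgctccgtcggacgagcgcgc
Jun: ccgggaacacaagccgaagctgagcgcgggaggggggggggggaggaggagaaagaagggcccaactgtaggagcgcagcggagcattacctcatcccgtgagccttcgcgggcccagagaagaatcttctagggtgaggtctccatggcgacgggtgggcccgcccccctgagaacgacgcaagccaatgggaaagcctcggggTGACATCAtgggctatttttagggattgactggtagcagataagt

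In the Fos window the core nearest the start lay 66 to 62 bases before it, and in the Fosb window 60 to 56 bases before it. Dusp1 had 3 matches of the core, of which 2 overlap within the full palindromic CRE TGACGTCA between 143 and 136 bases before the start. The Jun window held no core, and its TGACATCA lay 45 to 38 bases before the start. Junb and Atf3, which also ranged less, did hold a core, at 106 to 102 and 7 to 3 bases before the start, so the core did not divide the wide genes from the narrow ones. Windows were found for 7 of the 10 genes (5 windows for Egr2, 1 for each other gene), the others being Fosl1, Egr1 and Ier2. A core stood in a window of 6 of those 7 genes and in 17.8% of all promoter windows of that length (32851 windows, both strands, full CREs included). The full CRE stood in 1.55% of all windows and TGACATCA, on either strand, in 2.93%. Neither AP-1 site, TGAGTCA or TGACTCA, was found in a window of any of the 7 (4.46% of all windows), and a CArG box, the site of serum response factor, only in windows of Egr2 (1.47% of all windows). GC boxes (GGGCGG, either strand) stood in windows of 6 of the 7 and in 32.7% of all. These are matches of letters only, and sites more than 250 bases before a start were not searched. A motif not found here, the CArG box included, may therefore still lie farther from the start.

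The measured genes varied widely within the groups, above all in the DMDD liposome group. All 9 were lowest in DMDD liposome replicate 1, and 5 of them, Fos, Fosb, Egr1, Ier2 and Dusp1, were highest in DMDD liposome replicate 2. Of all 12891 tested genes, 14.6% were lowest in the first of these libraries and 18.7% highest in the second. Since the genes were chosen with these counts in view, the counts of members are a description. In bulk tumor RNA, fewer expressing cells and less RNA per cell cannot be told apart.

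Junb had the highest level per length, at 337 ± 71.3 FPKM (mean ± SD, n = 6 libraries; FPKM is the authors' deposited value scaled to gene length and library size). Ier2 followed at 115 ± 42.6 FPKM and Jun at 109 ± 37.6 FPKM, a pair that changed places between libraries, with Ier2 above Jun in 2 of 6. Fos averaged 64.0 ± 58.4 FPKM and stood above Dusp1, at 35.7 ± 26.8 FPKM, in 6 of 6. Dusp1 and Fosl1 (27.5 ± 8.67 FPKM) were not separated, Dusp1 being above in 2 of 6, nor were Egr1 (18.1 ± 13.1 FPKM) and Atf3 (13.3 ± 4.18 FPKM), with Egr1 above in 2 of 6. Fosb was at the bottom with 8.73 ± 9.84 FPKM, although it overtook Atf3 in DMDD liposome replicate 2.

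**Figure D1:**
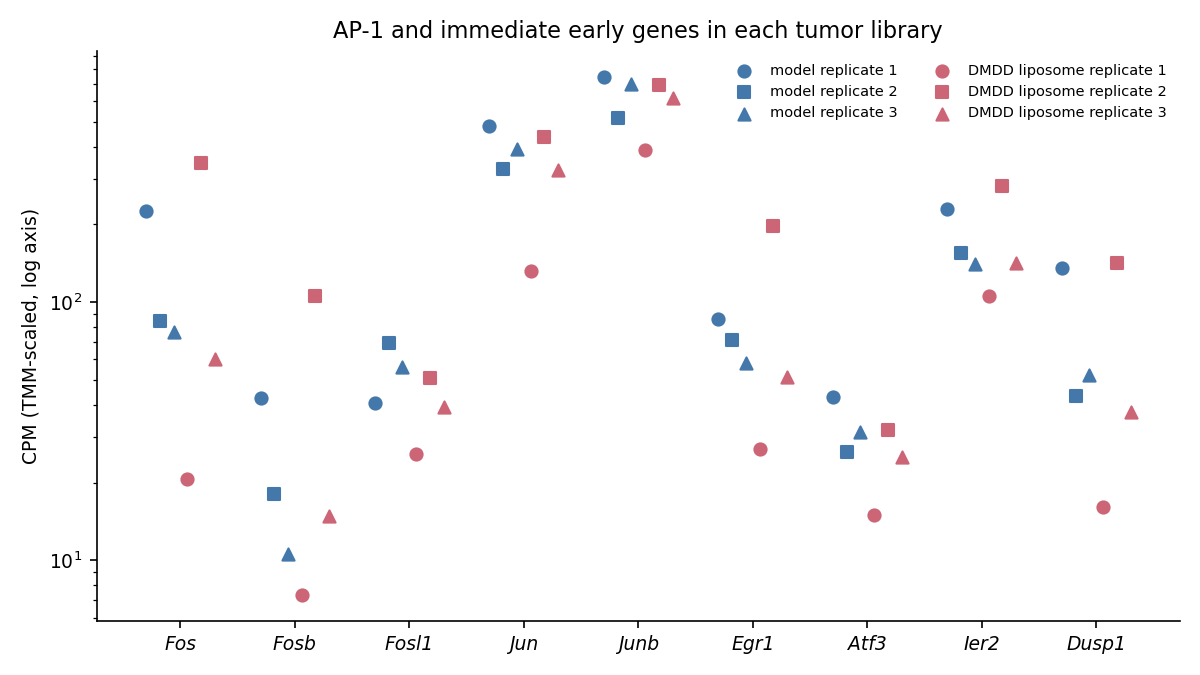
CPM (counts relative to the TMM-scaled library total, log axis) of the 9 measured genes, with 1 point per library, blue for model and red for DMDD liposome. DMDD liposome replicate 1 is the lowest point of every gene, and Fos runs from 20.7 to 346 CPM within the DMDD liposome group.

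Fos, the AP-1 subunit that cannot pair with itself and needs a Jun partner, had 2946 counts in model replicate 1, 1312 in replicate 2 and 1165 in replicate 3. The DMDD liposome libraries had 292, 4587 and 886, in the same order. The DMDD liposome values thus lay on both sides of all 3 model values. On the CPM scale the highest of those libraries was 16.8-fold above the lowest, against 2.95-fold within the model group. Fos averaged 129 ± 83.9 CPM in the model group against 142 ± 178 CPM after DMDD liposome (mean ± SD of 3 libraries each), so the SD of the second group exceeded its mean. The fitted log2 fold change, DMDD liposome over model, was 0.14 ± 0.92 (SE), while the means of the log2 CPM stood the other way, at 6.24 in DMDD liposome and 6.83 in model.

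Fosb, a close relative of Fos that is induced with it, was also lowest in DMDD liposome replicate 1 and highest in DMDD liposome replicate 2, at a lower level. Its counts were 554, 281 and 161 in model against 104, 1404 and 219 in DMDD liposome. DMDD liposome replicate 2 stood at 106 CPM, 14.4-fold above replicate 1 of its group, and the next library, model replicate 1, was at 42.4 CPM. The fitted log2 fold change of 0.85 ± 0.95 became -1.09 without DMDD liposome replicate 2.

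Fosl1, which encodes Fra-1, a Fos-like subunit that lacks the strong activation domain of Fos and is common in invasive carcinoma cells, had another profile. The model libraries gave 531, 1077 and 856 counts, and those of DMDD liposome 364, 674 and 578. Model replicate 2 was the highest library and model replicate 1 fell among the DMDD liposome values, so the groups overlapped. The mean level of Fosl1 was 55.4 ± 14.4 CPM for model and 38.7 ± 12.6 CPM for DMDD liposome, and the fitted log2 fold change -0.52 ± 0.28. Its value stayed negative without any 1 library, between -0.77 and -0.30.

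The make-up of the Fos family shifted with the library. Fos supplied 65.0% of the family's summed FPKM (Fos, Fosb, Fosl1 and Fosl2) in model replicate 1 and 65.7% in DMDD liposome replicate 2, but 24.5% in DMDD liposome replicate 1. In that last library Fosl1 supplied 37.7% and Fosl2, which encodes Fra-2, 32.9%. In model replicates 2 and 3 and in DMDD liposome replicate 3, Fos made up 40.3%, 38.7% and 39.6%, and Fosl1 40.8%, 35.1% and 31.9%. The family's sum ran from 41.1 FPKM in DMDD liposome replicate 1 to 247 FPKM in DMDD liposome replicate 2, with 165, 99.8 and 91.5 FPKM in the model libraries and 72.8 FPKM in DMDD liposome replicate 3. Fosl2 itself was not called in the treatment comparison, at a log2 fold change of -0.01 ± 0.30 (edgeR quasi-likelihood test, Benjamini-Hochberg adjusted p = 0.996), with 1919, 1426 and 2170 counts in model and 1217, 2428 and 1601 in DMDD liposome.

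**Figure D2:**
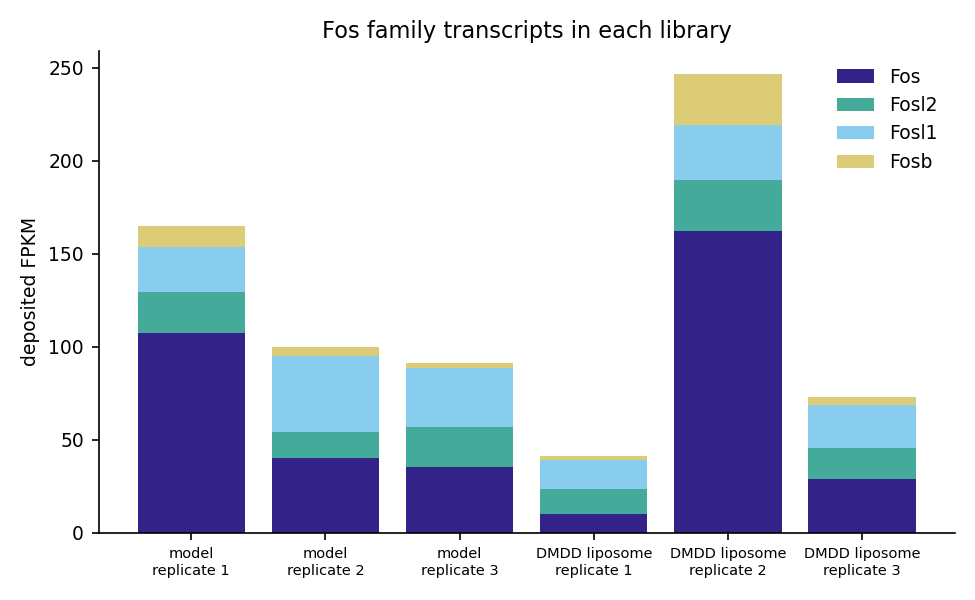
Deposited FPKM of the 4 Fos family genes, stacked for each library (1 bar per library, axis from 0). The bars run from 41.1 FPKM in DMDD liposome replicate 1 to 247 FPKM in DMDD liposome replicate 2, and Fos is the part that varies most.

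Jun, the founding partner of Fos, had 6285, 5099 and 5974 counts in model and 1866, 5772 and 4786 in DMDD liposome. Apart from DMDD liposome replicate 1, at 132 CPM, the other 5 libraries lay between 326 and 482 CPM. The model group averaged 401 ± 76.8 CPM and the DMDD liposome group 298 ± 154 CPM. The fitted log2 fold change of -0.43 ± 0.39 shrank to -0.07 without that library.

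Junb, a Jun relative that can oppose Jun at some promoters, varied least. It had 9754, 8013 and 10667 counts in model and 5491, 9182 and 9061 in DMDD liposome. The highest library was 1.92-fold above the lowest, and the log2 fold change was -0.21 ± 0.24. Without DMDD liposome replicate 1 that value was 0.00. Junb made up 83.8% of the summed FPKM of Jun and Junb in DMDD liposome replicate 1 and between 73.2% and 77.0% in the other 5 libraries. Jund, the remaining Jun gene, is listed with a total of 1 count, in model replicate 3, and was not tested. Most tissues express Jund, so this value is uncertain, and the sum of Jun and Junb is not the whole Jun family.

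Atf3, a stress-induced relative that pairs with Jun proteins, gave 558, 407 and 477 counts in model and 212, 424 and 368 in DMDD liposome. Its profile was the most like those of Junb and Jun, with root mean square differences of 0.19 and 0.21 on the log2 scale over the 6 libraries, each gene centred on its own mean. Mean levels were 33.4 ± 8.47 CPM for model and 24.0 ± 8.55 CPM for DMDD liposome, and the fitted log2 fold change was -0.48 ± 0.29. It stayed negative without any 1 library, from -0.74 to -0.23.

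Egr1, the zinc finger factor, had 1119, 1104 and 889 counts in model and 383, 2610 and 754 in DMDD liposome. The model libraries were close together, at 58.3 to 85.7 CPM, while the DMDD liposome libraries spanned 27.1 to 197 CPM. The log2 fold change of 0.36 ± 0.64 became -0.88 without DMDD liposome replicate 2 and 0.79 without DMDD liposome replicate 1.

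Ier2, a small nuclear protein gene named for its immediate early response, had 2993, 2411 and 2152 counts in model and 1498, 3745 and 2075 in DMDD liposome. Group means were 175 ± 47.3 and 177 ± 93.5 CPM, a log2 fold change of 0.01 ± 0.36. Its 2 groups shared the same centre while the second had the wider spread. Ier2 was among the genes nearest the average profile of the 9, at a root mean square difference of 0.27.

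Dusp1, the nuclear phosphatase that switches off p38 and JNK, had 1777, 674 and 799 counts in model. It had 228, 1881 and 553 counts in DMDD liposome. Model replicate 1 and DMDD liposome replicate 2 stood together, at 136 and 142 CPM, and the next library was at 52.4 CPM. Dusp1 resembled Fos most closely among the members (root mean square difference 0.30). Its log2 fold change was -0.24 ± 0.76, and -1.53 without DMDD liposome replicate 2.

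Set side by side, the 9 genes fell into a wide and a narrow set by their spread within groups. Fos and Fosb had a pooled SD within groups of 1.57 each on the log2 CPM scale, Dusp1 1.28 and Egr1 1.05. For Jun, Ier2, Atf3, Fosl1 and Junb it was 0.66, 0.58, 0.47, 0.44 and 0.37. The median over the 9 was 0.66, and over all tested genes 0.21. Fos, Fosb, Dusp1 and Egr1 had a wider range over the 6 libraries than 99.4%, 99.3%, 98.6% and 98.0% of tested genes, and Junb than 71.6%. Centred on each gene's mean, the average of the 9 was 0.64, -0.04 and -0.09 for the model libraries in order of number, and -1.22, 0.99 and -0.29 for those of DMDD liposome. By this average, model replicate 1 stood nearer to DMDD liposome replicate 2 than to the other model libraries, though not for every gene. Egr1 was at 85.7 CPM in model replicate 1, with 71.1 and 58.3 CPM in the other model libraries and 197 CPM in DMDD liposome replicate 2.

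**Figure D3:**
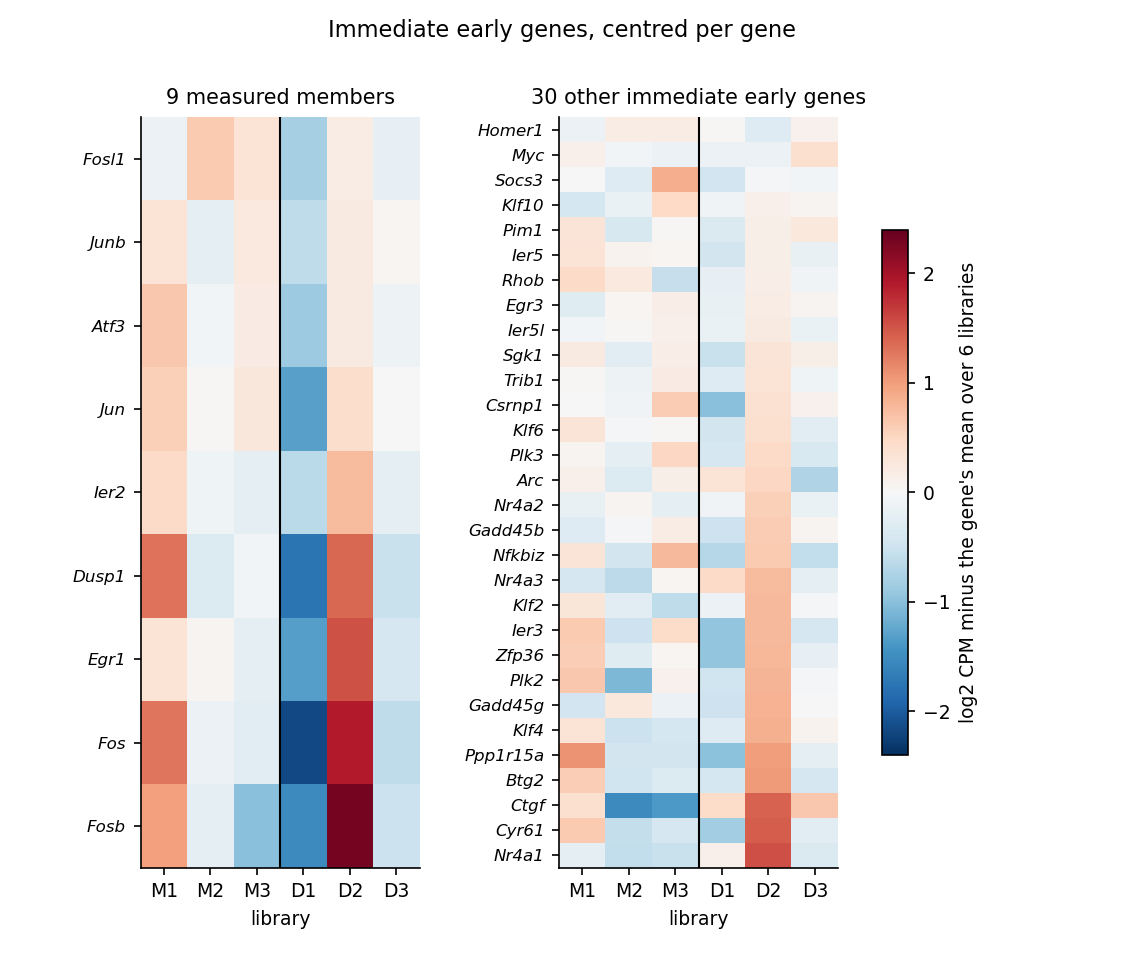
Log2 CPM minus each gene's mean over the 6 libraries (color scale), for the 9 measured genes on the left and the 30 tested genes of the list of other immediate early genes on the right. M1 to M3 are the model replicates and D1 to D3 the DMDD liposome replicates, and rows are ordered by D2. D1 is blue for all 9 genes on the left, and D2 is red for them and for most genes on the right.

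For the treatment comparison, the 2 groups overlapped for all 9 genes, where the groups did not overlap for 12.9% of all tested genes. Fitted log2 fold changes were negative for 5 of the 9 and positive for 4, with a median of -0.21 against 0.01 for all tested genes. For Fos, Egr1 and Ier2 the sign of the fitted fold change, which follows the group means, was opposite to that of the difference of mean log2 CPM. Leaving out 1 library changed the sign for 6 of the 9, the exceptions being Fosl1, Jun and Atf3. Without DMDD liposome replicate 2 all 9 were negative, with a median of -0.81, and without DMDD liposome replicate 1, 6 of 9 were positive, with a median of 0.22. No test was made on the members, since this contrast was known when they were chosen.

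**Figure D4:**
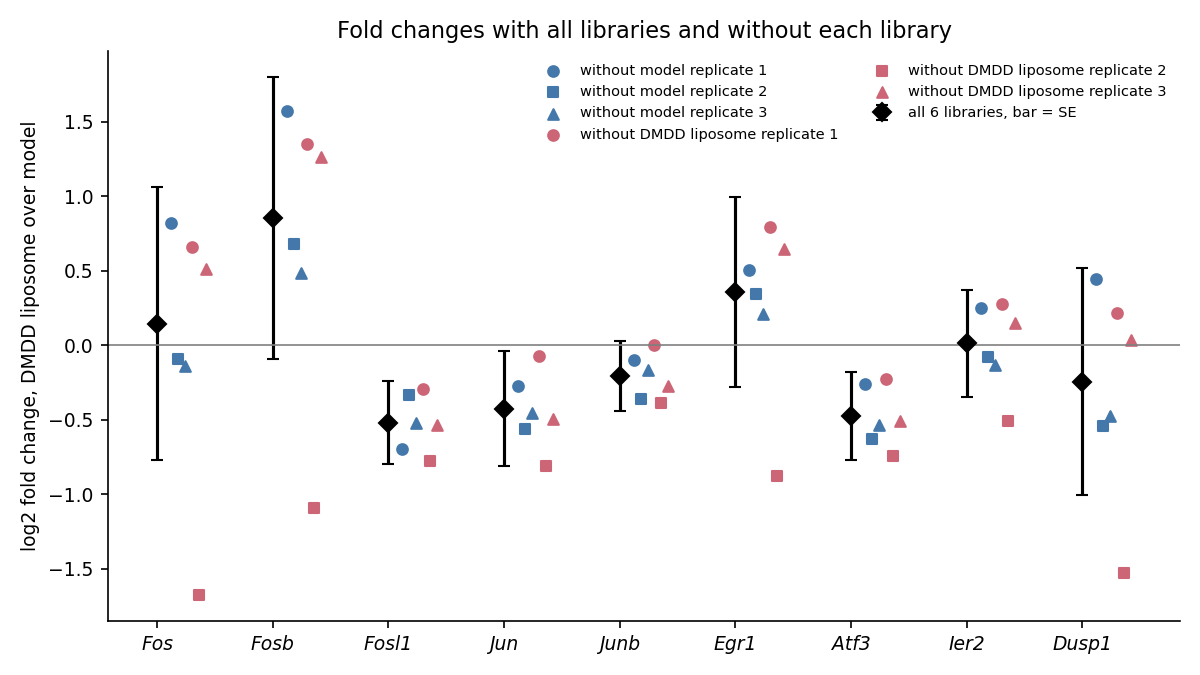
Fitted log2 fold change, DMDD liposome over model, for the 9 measured genes. Diamonds are values with all 6 libraries (bars are SE) and the other points leave out 1 library each. For Fos the value moves from 0.14 to -1.68 without DMDD liposome replicate 2, while Fosl1, Jun and Atf3 stay below 0 throughout.

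The pathway around these genes was read from 6 lists written with earlier results of these data known, and 96 of their genes were tested. The edgeR quasi-likelihood test called 0 of the 96 after Benjamini-Hochberg adjustment over all genes (smallest adjusted p = 0.626), as it called 0% of all 12891. At an unadjusted p under 0.05 it found 9 of the 96, 4 higher and 5 lower in DMDD liposome, or 9.38% beside 7.65% of all tested genes (4.34% higher and 3.31% lower). The DESeq2 Wald test called 0 of the 97 genes of these lists that it tested, beside 59 of 14461 genes over the whole table.

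Among other immediate early genes, 30 of 32 were tested, 0 were called, 2 had an unadjusted p under 0.05 and both of these were higher in DMDD liposome. The median log2 fold change was 0.02. Ctgf, the matrix-associated growth regulator also called Ccn2, had 2395, 757 and 820 counts in model and 2700, 4973 and 3231 in DMDD liposome. The groups did not overlap, which held for 12.9% of all tested genes. Ctgf was named for its small p, which favors such a separation. Its log2 fold change was 1.46 ± 0.53 (edgeR adjusted p = 0.626), and without model replicate 1 it was 2.35 and passed the threshold (adjusted p = 0.0395). Nr4a1, an orphan nuclear receptor gene, had 262, 240 and 245 counts in model and 360, 902 and 268 in DMDD liposome (log2 fold change 1.11 ± 0.46, edgeR adjusted p = 0.641). Its relative Nr4a3 was at 0.70 ± 0.34 (edgeR adjusted p = 0.666), with 48, 48 and 77 counts against 95, 111 and 61. In both Nr4a genes DMDD liposome replicate 1, the lowest library for all 9 members, stood above all 3 model libraries.

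Library by library, the same list was set beside the members. Of the 30 tested genes, 15 (50.0%) were lowest in DMDD liposome replicate 1 and 19 (63.3%) highest in DMDD liposome replicate 2, and 8 (26.7%) showed both. The shares over all tested genes were 14.6%, 18.7% and 2.93%. Zfp36, which encodes an RNA-binding protein that speeds the decay of cytokine messages, was the list's gene nearest to the members' average profile, with 1855, 1198 and 1486 counts in model and 689, 2180 and 1208 in DMDD liposome. The list's centred mean was 0.56 in DMDD liposome replicate 2 and -0.34 in DMDD liposome replicate 1, a smaller span than that of the members.

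Of 9 other AP-1 subunits tested, 0 had an unadjusted p under 0.05, and the median log2 fold change was -0.01. Atf7, a CREB-related subunit, stood at -0.23 ± 0.11 (edgeR adjusted p = 0.645), from 78.5 ± 7.97 CPM to 66.8 ± 1.29 CPM. Jdp2, which pairs with Jun as a repressor, had 266, 237 and 294 counts in model and 267, 521 and 304 in DMDD liposome (log2 fold change 0.52 ± 0.29, edgeR adjusted p = 0.700). Maff, a small Maf protein gene, was at -0.23 ± 0.21 (edgeR adjusted p = 0.815) and, like the members, lowest in DMDD liposome replicate 1.

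Of 21 upstream kinases and factors tested, 16 had a negative log2 fold change, with a median of -0.08, 3 had an unadjusted p under 0.05, and 0 were called. These 3 were Elk4 and Elk3, ternary complex factors that bind with serum response factor, and Rps6ka1, the kinase RSK1 downstream of ERK. Elk4 had 565, 431 and 674 counts in model and 370, 345 and 382 in DMDD liposome (log2 fold change -0.56 ± 0.19, edgeR adjusted p = 0.626). Elk3 was at -0.40 ± 0.15 (edgeR adjusted p = 0.626) and Rps6ka1 at -0.34 ± 0.13 (edgeR adjusted p = 0.630). In none of the 3 did the groups overlap, which held for 12.9% of all tested genes. The 3 were named for their small p, which favors such a separation, so it adds nothing to that p.

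Feedback inhibitors split evenly, with 7 of 14 negative, 1 higher and 1 lower at an unadjusted p under 0.05, and 0 called. Dusp2, a nuclear MAP kinase phosphatase of leukocytes, had 121, 96 and 85 counts in model and 175, 186 and 151 in DMDD liposome (log2 fold change 0.81 ± 0.25, edgeR adjusted p = 0.626). Dusp2 stood above all 3 model libraries in every DMDD liposome library, at 12.4, 14.0 and 10.3 CPM. The first of these was the library where Dusp1 was lowest. Groups that did not overlap, which a small p favors, were found for 12.9% of all tested genes. Dusp8, a phosphatase of JNK, went the other way at -0.88 ± 0.33 (edgeR adjusted p = 0.629), with 103, 71 and 105 counts against 45, 63 and 38. Nab1, a corepressor of Egr1, stood at -0.21 ± 0.12 (edgeR adjusted p = 0.703).

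AP-1 target genes had a median log2 fold change of -0.16 over 14 tested, with 1 lower at an unadjusted p under 0.05 and 0 called. That gene was Mmp10, a stromelysin, with 1110, 934 and 2591 counts in model and 55, 688 and 420 in DMDD liposome. Its groups did not overlap, which held for 12.9% of all tested genes. Mmp10 was named for its small p, which favors such a separation. Its log2 fold change was -1.90 ± 0.77 (edgeR adjusted p = 0.639). Cd44, the hyaluronan receptor, was at -0.65 ± 0.29 (edgeR adjusted p = 0.644), and Mmp9, a gelatinase, at 0.60 ± 0.27 (edgeR adjusted p = 0.645). In DMDD liposome replicate 1, 8 of the 14 targets had their lowest value, Mmp10 among them, and in DMDD liposome replicate 2, 7 of 14 had their highest, Mmp9 among them. The shares over all tested genes were 14.6% and 18.7%.

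Heat shock genes are another group that responds to stress and handling. Of 8 tested, 1 was lowest in DMDD liposome replicate 1 and 5 were highest in DMDD liposome replicate 2, and 0 were called. The shares over all tested genes were 14.6% and 18.7%. The 1 gene lowest in DMDD liposome replicate 1 was Hspa1b, also highest in DMDD liposome replicate 2. It had 1852, 1299 and 2003 counts in model and 869, 2132 and 1242 in DMDD liposome. Hspa1a, with 85, 48 and 52 counts against 64, 164 and 54, was highest in DMDD liposome replicate 2 and next to highest in model replicate 1. The part of handling in these values was not tested. Hsph1, a chaperone of the Hsp110 family, had 753, 879 and 1298 counts in model and 1585, 1436 and 1129 in DMDD liposome (log2 fold change 0.58 ± 0.21, edgeR adjusted p = 0.626). Hsp90aa1 and Hspb1, also chaperones, were at 0.21 ± 0.12 (edgeR adjusted p = 0.713) and 0.43 ± 0.34 (edgeR adjusted p = 0.789).

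Markers of cell types also differed between the 2 libraries at the extremes. The 8 epithelial markers were detected in every library. Their sums ran from 3459 to 6347 CPM in model and from 3339 to 3949 CPM in DMDD liposome. The lowest sum, 3339 CPM, was in DMDD liposome replicate 2. Model replicate 1 was next at 3459 CPM, and DMDD liposome replicate 1 followed at 3734 CPM. By single genes, 5 of the 8 were lowest in DMDD liposome replicate 2, 2 in DMDD liposome replicate 1 and 1 in model replicate 3. DMDD liposome replicate 2 had the highest summed fibroblast markers (10710 CPM, against 3910 to 7428 CPM elsewhere), endothelial markers (346 CPM, against 167 to 320 CPM) and fat cell markers (99.2 CPM, against 10.9 to 42.3 CPM), and the lowest T cell markers (19.6 CPM). That fibroblast sum came mainly from the collagens Col1a1, Col1a2 and Col3a1, at 4206, 3125 and 2969 CPM. Dcn and Lum were highest in model replicate 2, at 109.5 and 86.0 CPM, and Pdgfra in DMDD liposome replicate 3, at 164 CPM. DMDD liposome replicate 1 had the highest T cell markers, 88.1 CPM against 19.6 to 69.8 CPM, and macrophage markers, 3928 CPM against 1505 to 3131 CPM. By single genes, 4 of 7 T cell markers and 6 of 9 macrophage markers were highest there. Among the exceptions, Cd4 was highest in model replicate 2, Cd3e in DMDD liposome replicate 3 and Mrc1 in model replicate 3. Model replicate 1, next to highest for Fos, was also next to highest for endothelial markers at 320 CPM. Skeletal muscle markers, 132.6 and 276 CPM in DMDD liposome replicates 1 and 3, lay between 33.0 and 63.9 CPM in the other libraries. Summed neutrophil markers lay between 197 and 248 CPM over the model libraries, against 105 to 181 CPM over the treated ones. That sum came mainly from S100a8 and S100a9, at 75.2 and 113 CPM in model replicate 1. Of 7 neutrophil markers tested, 6 had a negative log2 fold change. Mmp8 stood at 0.03 and, like the untested Ly6g, was highest in DMDD liposome replicate 3. G0s2 was highest in DMDD liposome replicate 2. Summed mast cell markers lay between 20.5 and 82.6 CPM over the model libraries, against 4.74 to 19.5 CPM over the treated ones. Epidermal keratinocyte markers were at 229 CPM in model replicate 2 and at 9.58 to 15.7 CPM in the others, with Krt1, Krt5, Lor, Flg and Dsg1a each at 0 in at least 1 library. Of the muscle list, Myh4 was at 0 in at least 1 library, and of the fat cell list, Adipoq, Plin1, Cidec, Lep, Pck1 and Retn. The part of these cell types in the levels of the AP-1 genes was not tested.

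Among tested genes other than the members, with predicted genes left aside, the one most like the average profile of the 9 was Pi15. This secreted protease inhibitor gene stood at a root mean square difference of 0.15 on the log2 scale over 6 libraries. Its CPM were 8.66, 7.15 and 5.05 in model and 2.62, 12.2 and 4.77 in DMDD liposome. Gpc3, a cell surface proteoglycan gene, came next at 0.16, and Zfp36 followed at 0.18. The other 7 nearest were Depp1, Klhl29, Hist1h1b, Peg3, Zfp618, Acpp and Calr4, at 0.21 to 0.27, with Klhl29 below 1 CPM in most libraries. Fos itself had no neighbor as close. The 5 genes nearest to it were Krt20, Fgf7, Gpc3, Hist1h3e and Depp1, at 0.53 to 0.64, and Krt20 and Hist1h3e were below 1 CPM in most libraries. Among the members, Dusp1 at 0.30 and Fosb at 0.45 were nearer to Fos than any of these.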

How the data were processed

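Tumor RNA had been extracted with Trizol and made into NEBNext Ultra libraries, per the labels' protocols. The sample descriptions gave groups and replicate numbers, and they say rat where the organism field says mouse. The authors deposited read counts per gene, a size-factor-normalized signal (not used for tests), FPKM, log2 fold changes with model in the numerator (reversed in the text), and p-values, in 1 table, per the file headers. The submitters' processing notes name build mm9 and DESeq2; no aligner, counter, annotation or strand setting is stated, so reads of overlapping or near-identical genes (Hspa1a and Hspa1b) are uncertain.

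The members, the gene lists and the rule for naming genes were chosen with earlier results of these data known. The rule named all members and the 3 genes of smallest p in each pathway list. It also named the nearest genes by root mean square difference of centred log2 CPM (10 to the members' mean, 5 to Fos, without predicted genes). Zfp36, Fosl2, Jund, Hspa1a and Hspa1b were also described for their values.

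The test was that of edgeR 4.0.16 under R 4.3.3: filterByExpr (minimum count 10, minimum total 15), TMM, quasi-likelihood test, two-sided, Benjamini-Hochberg over 12891 genes, threshold 0.05. SE came from the F statistic. Log2 CPM used a prior count of 2. A gene at 3 counts is at 0.193 to 0.230 CPM. In 5 simulated data sets, 12891 genes were drawn from the means and dispersions of this comparison. In them 50.6% of 2-fold and 86.8% of 4-fold changes were recovered, and 6.78% of calls were false. The changed genes were picked at random from all tested genes. The members had a larger median SD within groups, 0.66 against 0.21, so these rates may not hold for them. Alternatives were DESeq2 1.42.0's size factors and Wald test, no filter, a replicate block, unadjusted p, another prior count and leaving out each library. Promoter sequences are RefSeq's for GRCm38.p6.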

Additional observations from a re-analysis of the deposited data

How the results depend on the processing

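With 3 libraries a group, the replicate block, testing without a filter and size factors from DESeq2 left the number of genes called by edgeR at 0, and that of pathway genes too. The DESeq2 Wald test called 59 of 14461 genes, 0 of them in the pathway lists. An unadjusted edgeR p under 0.05 gave 986 genes and 9 pathway genes. Leaving out 1 library in turn gave from 0 to 112 calls over all genes and from 0 to 1 among pathway genes, the highest in both cases without model replicate 1. The median log2 fold change of the 9 measured members, -0.21, ran from -0.81 without DMDD liposome replicate 2 to 0.25 without model replicate 1. It was -0.49 with the replicate block, under which 8 of the 9 were negative. Numbers were not taken as pairs, since the labels used here state no pairing. Correlations of deviations were 0.088, 0.114 and 0.121 for same-numbered libraries and from -0.164 to 0.032 for the others. Each library thus correlated best with its own number, though all of these correlations were small. Deviations sum to 0 within a group, which ties the correlations to one another, so they cannot decide whether libraries were paired. The other prior count and DESeq2 size factors moved the members' mean per library by less than its spread. The cause of these shifts was not tested beyond the library left out.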
